A study of Homo sapiens with 12 samples.

Results

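DNA replication and S-phase genes were followed in 3 human lung adenocarcinoma lines in which miR-197 was supplied or blocked. The members are 43 genes named by their role in copying the genome, and their probes were found by gene name in the scanner output of all 12 arrays. All 43 were present, on 54 probes, among 24857 genes measured, and each of the 54 probes was well above background on 12 of 12 arrays. A549 and PC14 are established lung adenocarcinoma lines, and PC14CDDP is the derivative of PC14 that resists cisplatin (CDDP). Cultures of all 3 lines were transfected at 25 nM with 1 of 4 agents. Of these, pre-miR-197 (premiR-197 in the labels) supplies the miRNA as a synthetic precursor, while LNA-miR-197, made of locked nucleic acid, inhibits it. NC (AllStar-NC) was taken here as the negative control of pre-miR-197, and LNA-NC (LNA-miR-NC) as that of LNA-miR-197. The labels do not pair NC with pre-miR-197. All cells were grown in the same serum-containing medium and received the same transfection reagent, and 100 ng of total RNA from each transfection was hybridized to 1 one-dye Agilent array. Within a line every transfection was done once, so the 3 lines served as replicates of a transfection, and the 4 arrays of a line are cultures of that 1 line. Because PC14CDDP derives from PC14, these 3 replicates are not of independent origin.

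Replication starts with licensing. The origin recognition complex (ORC1, ORC6), CDC6 and CDT1 load the MCM2 to MCM7 helicase onto origins before S phase, and geminin (GMNN) holds CDT1 in check so that origins are not loaded again. CDC45 and the GINS proteins then join the helicase and MCM10 helps to start it. Primase and polymerase alpha lay down primers, the RFC complex loads the PCNA clamp, polymerases delta and epsilon extend the strands, and FEN1 and LIG1 trim and seal Okazaki fragments while RPA covers single-stranded DNA. RRM1, RRM2, TYMS and TK1 supply deoxynucleotides, CHAF1A and CHAF1B place histones on the new DNA, and E2F1 is a transcription factor that acts on many of these genes as cells enter S phase. In proliferating cultures the mRNA levels of many of these genes, though not of all, follow the share of cells in or near S phase. In bulk RNA, more cells in S phase and more mRNA per cell cannot be told apart.

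The sequences behind the design and the group are given first. The miRNA that the transfections raise or block has a mature strand with the seed shown in capitals (bases 2 to 8), at chr1:109598940-109598961 on the plus strand of GRCh38.p14 (RefSeq).
hsa-miR-197-3p: uUCACCACcuucuccacccagc

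RefSeq promoters (GRCh38.p14, 250 bases before to 50 after the start site) were held for 37 of the 43 members; GINS4, MCM4, MCM5, POLD3, RPA2 and RPA3 had no entry. An E2F-type motif, taken here as any of TTTCCCGC, TTTCGCGC, TTTGCCGC and TTTGGCGC on either strand, was found in 18 of the 37 (48.6%), against 908 of 27305 promoters in all (3.33%). It was found in 7 of 19 promoters of the members that were higher in PC14CDDP than in PC14, in 3 of 5 of those that were lower and in 8 of 13 of those not called. No match was found in RRM2, FEN1, CDC45, PRIM1 or GMNN, which the results below also describe. Stretches of 30 bases upstream of the start site are shown for 7 members, chosen among those with a match. They run 5′ to 3′ on the strand of the gene, with 1 match in capitals.
MCM6: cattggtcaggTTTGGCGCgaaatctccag
CDT1: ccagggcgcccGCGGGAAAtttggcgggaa
E2F1: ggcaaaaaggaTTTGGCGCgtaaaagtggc
PCNA: cagcgtcagggGCGGGAAAaggcgtgcgtt
POLA1: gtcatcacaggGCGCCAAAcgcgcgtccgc
POLA2: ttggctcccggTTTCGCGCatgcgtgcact
LIG1: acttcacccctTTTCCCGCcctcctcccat
Counted from the start site, the match begins at -90 in MCM6, -35 in CDT1, -20 in E2F1, -59 in PCNA, -137 in POLA1, -53 in POLA2 and -114 in LIG1. In MCM6 a match on the other strand overlaps the one in capitals. Further matches begin at -152 and -148 in MCM6 and at -33 in E2F1. The genomic positions are chr2:135876515-135876544 for MCM6, chr16:88803743-88803772 for CDT1, chr20:33686387-33686416 for E2F1, chr20:5126663-5126692 for PCNA, chrX:24693770-24693799 for POLA1, chr11:65261898-65261927 for POLA2 and chr19:48170440-48170469 for LIG1. The motif was thus found both in members that were higher and in members that were lower in PC14CDDP, and a match of letters is a description and not a site of binding.

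Levels are log2 values of the processed signal after division by the 75th percentile of that array, so that a difference of 1 is 2-fold. That percentile ranged from 613.5 to 714.6 units over the arrays, 55.8% to 63.1% of the probes were well above background, and the number of saturated spots was 0 throughout. The 4 A549 arrays lay on slide 1 and the PC14 and PC14CDDP arrays on slide 2, so A549 and its slide cannot be told apart, whereas PC14 and PC14CDDP shared a slide. A given transfection sat in 1 slide column for all 3 lines, so position and transfection cannot be told apart. The epithelial keratins KRT8 and KRT18 were well above background on all 12 arrays. EPCAM and CDH1 were well above background on 4 of 4 A549 arrays, on 3 and 2 of 4 PC14 arrays and on 0 of 4 PC14CDDP arrays. The fibroblast genes DCN and LUM were well above background on 0 arrays and COL3A1 on 1 PC14 array, but COL1A1 was on all 12. The endothelial genes CDH5 and VWF and the leukocyte genes PTPRC and CD68 were also well above background on all 12 arrays. PECAM1, another endothelial gene, had a mean level of -1.37 in PC14, against -6.85 in A549 and -7.74 in PC14CDDP. The part of these differences between lines in the results below was not tested.

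Most of the members that were called between the resistant line and its parent were higher in the resistant line. In PC14CDDP against PC14, 23 of the 43 members (53.5%) were called higher and 6 lower at an adjusted p under 0.05 (limma, Benjamini-Hochberg over 24857 genes), where 24.7% of all genes were called higher, 23.6% lower and 48.3% in either direction. The median log2 difference was 0.34 over the members, a 1.26-fold rise, and 0.03 over all genes. The 4 PC14CDDP arrays lay entirely above the 4 PC14 arrays for 18 members and entirely below for 5, against 18.4% and 17.6% of all genes. These members were chosen for their role, and the counts describe them beside the background without a test of the list.

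Of the licensing genes, 8 of 11 were called higher and 1 lower, beside 24.7% and 23.6% of all genes. CDT1, the loading factor, read 3.4, 3.1, 3.75 and 3.06 in PC14 on the pre-miR-197, NC, LNA-miR-197 and LNA-NC arrays (the order used throughout) and 4.26, 3.96, 4.39 and 3.99 in PC14CDDP. Every PC14CDDP array lay above every PC14 array, and the log2 difference was 0.82 ± 0.114 (SE; limma adjusted p = 0.000532). Its inhibitor GMNN moved the same way, from 4.35, 4.70, 4.65 and 4.62 to 5.02, 5.29, 5.23 and 5.03, a log2 difference of 0.56 ± 0.116 (limma adjusted p = 0.00427). Thus the mRNAs of the loading factor and of its inhibitor were both higher in the resistant line, with no overlap of arrays for either. Protein was not measured on these arrays, for these or the other members.

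The helicase subunits did not move as a block. MCM6 rose from 3.78, 3.68, 3.46 and 3.65 in PC14 to 4.73, 4.47, 4.20 and 4.54 in PC14CDDP, a 1.79-fold difference (log2 0.84 ± 0.0769, limma adjusted p = 6.11e-05). MCM2 rose less, from 3.91, 3.59, 3.78 and 3.55 to 4.24, 3.91, 4.03 and 3.99 (log2 0.34 ± 0.0875, limma adjusted p = 0.0129), and the 2 sets of arrays met without overlapping. MCM5, a subunit of the same ring, fell from 4.27, 4.09, 3.95 and 4.15 to 3.81, 3.45, 3.23 and 3.71 (log2 -0.57 ± 0.13, limma adjusted p = 0.00726), and its second probe gave -0.56. MCM4 and MCM7 were called higher by 0.35 and 0.36, the MCM4 call being kept in 6 of 13 alternative settings (limma adjusted p up to 0.121), and MCM3 differed by 0.29 without passing the test (limma adjusted p = 0.0676). CDC6 was higher by 0.70 and ORC1 by 0.44, whereas ORC6 differed by 0.41 without a call (limma adjusted p = 0.0627).

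Among the factors that fire the loaded helicase, CDC45 stood out. It read 3.24, 3.33, 2.88 and 3.42 in PC14 and 4.24, 4.42, 3.66 and 4.29 in PC14CDDP, a 1.91-fold rise (log2 0.93 ± 0.11, limma adjusted p = 0.000221). The lowest PC14CDDP array, LNA-miR-197, was still above the highest PC14 array. Its GINS partners were split: GINS4 was called higher by 0.30 and GINS1 lower by 0.40 on the log2 scale (-0.40), while GINS2 and GINS3 differed by 0.02 and -0.00. The GINS4 call was kept in 8 of 13 alternative settings and the GINS1 call in 11 of 13. MCM10 differed by -0.25 and was not called (limma adjusted p = 0.0816), although its 4 PC14CDDP arrays lay below the 4 PC14 arrays.

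The nucleotide supply gave the largest single difference. RRM2, the S-phase subunit of ribonucleotide reductase, read 1.67, 1.73, 1.69 and 1.80 in PC14 and 3.1, 3.21, 2.38 and 3.01 in PC14CDDP on a probe at chr2:10270487-10270546 (hg19, plus strand). Each PC14CDDP array was above each PC14 array, and the mean was 2.30-fold higher (log2 1.2 ± 0.142, limma adjusted p = 0.000227). The LNA-miR-197 array was the lowest of the PC14CDDP arrays, and without the LNA-miR-197 arrays of both lines the difference was 1.37. TYMS, which makes thymidylate, and TK1, which salvages thymidine, were higher by 0.60 and 0.47, and RRM1, the other reductase subunit, differed by 0.16 without a call (limma adjusted p = 0.14).

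Primase rose while its partner polymerase alpha did not. PRIM1, the catalytic subunit, read 2.61, 2.27, 2.46 and 2.50 in PC14 and 3.58, 3.18, 3.27 and 3.37 in PC14CDDP, a 1.85-fold rise (log2 0.89 ± 0.0841, limma adjusted p = 7.25e-05). The other subunit, PRIM2, was higher by 0.53 on the probe used and by 0.61 and 0.74 on its other probes. POLA2, the accessory subunit of polymerase alpha, fell from 0.95, 1.29, 0.91 and 1.28 to 0.16, 0.74, -0.28 and 0.51, a 1.77-fold difference (log2 -0.83 ± 0.137, limma adjusted p = 0.00139), again with no overlap. POLA1, its catalytic subunit, differed by -0.15 and was not called. Of the extending polymerases, POLD1 was lower (-0.54, limma adjusted p = 0.00559), and POLE, POLE2 and POLD3 differed by 0.32, -0.13 and -0.06 without a call.

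The mRNAs of the 2 enzymes that finish Okazaki fragments were both lower in PC14CDDP. FEN1, the flap endonuclease, read 2.0, 2.42, 2.40 and 2.34 in PC14 and 0.83, 1.56, 1.36 and 1.40 in PC14CDDP, and the means differed 2.01-fold (log2 -1.01 ± 0.124, limma adjusted p = 0.000283). LIG1, the ligase that seals the nick, read 3.79, 3.90, 3.35 and 3.77 in PC14 and 3.18, 3.51, 2.07 and 3.31 in PC14CDDP (log2 -0.68 ± 0.164, limma adjusted p = 0.00929). FEN1 arrays did not overlap between the lines, whereas the PC14CDDP NC array of LIG1 was above the PC14 LNA-miR-197 array. Without the LNA-miR-197 arrays the LIG1 difference was -0.48 and was still called.

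The clamp loader rose and the clamp itself was not called. RFC1, RFC2, RFC3 and RFC5 were higher in PC14CDDP by 0.51, 0.48, 0.49 and 0.54, and RFC4 differed by 0.12 without a call. PCNA read 4.59, 4.75, 4.50 and 4.61 in PC14 and 4.76, 4.98, 4.61 and 4.70 in PC14CDDP, ranges that overlap (log2 0.16, 95% interval -0.06 to 0.37, limma adjusted p = 0.206). The single-strand binding subunits RPA1, RPA2 and RPA3 were higher by 0.48, 0.58 and 0.56. The 2 probes of RPA1 differed in size, 0.48 on the brighter and 1.40 on the dimmer. CHAF1A was called higher by 0.28, and CHAF1B differed by 0.23 (limma adjusted p = 0.0561).

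E2F1 itself did not follow the group. It read 2.21, 1.84, 1.85 and 2.07 in PC14 and 2.04, 2.32, 1.6 and 2.15 in PC14CDDP, and the arrays of the lines were intermixed (log2 0.04, 95% interval -0.24 to 0.32, limma adjusted p = 0.828). A rise of up to 0.32 or a fall to -0.24 lies within this interval.

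**Figure D1:**
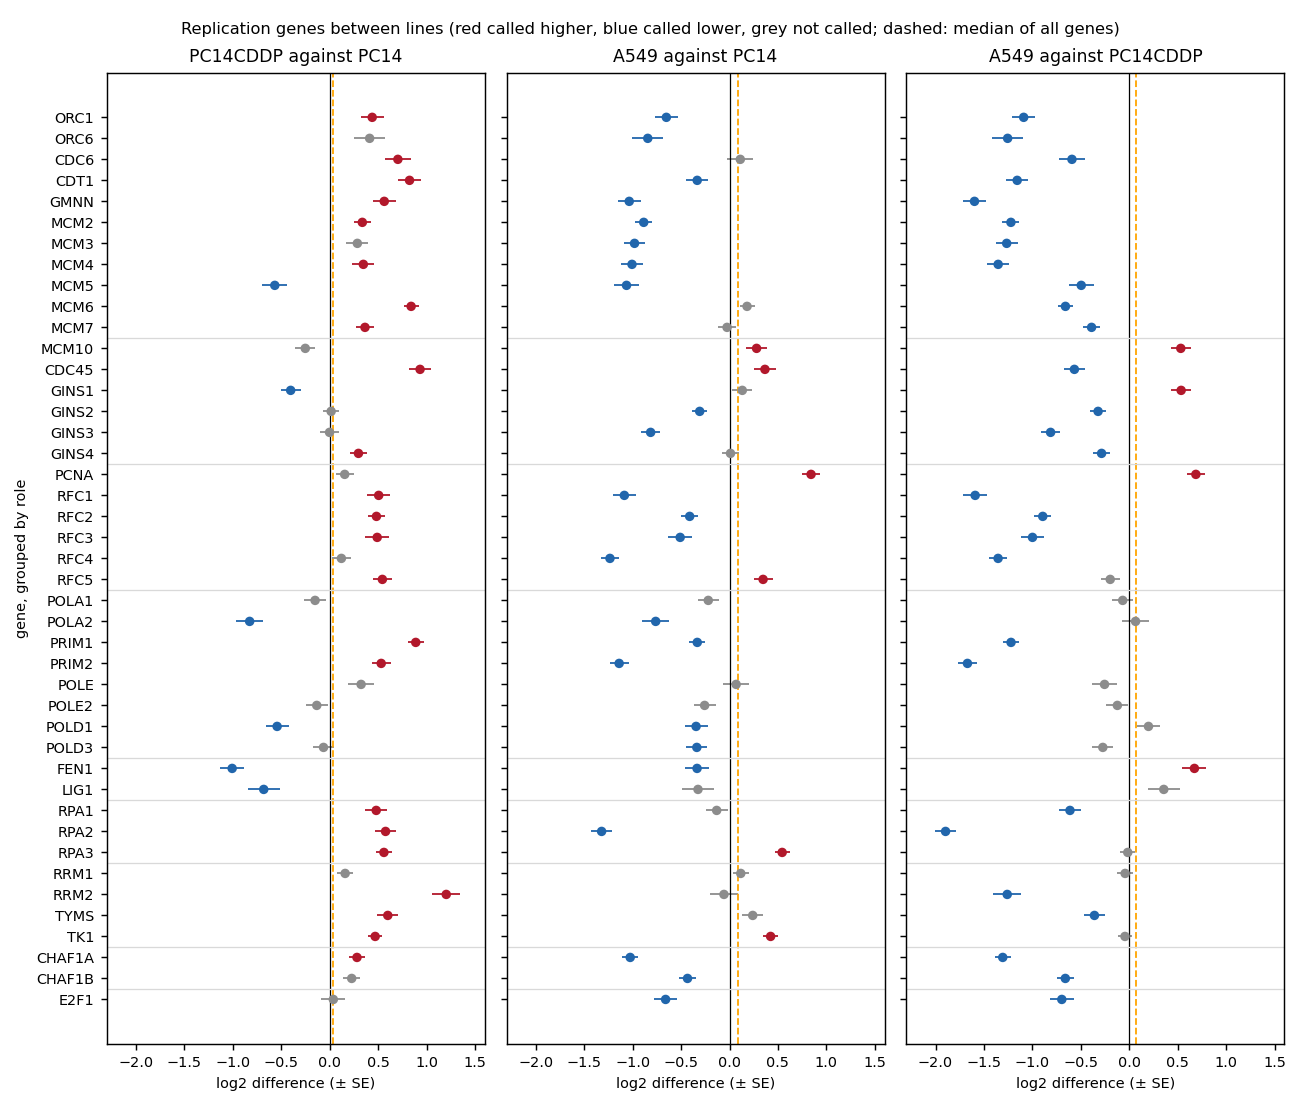
Log2 differences (x axis, ± SE from limma) of the 43 members (y axis, grouped by role) between the lines, 4 arrays a line; red points were called higher, blue points lower and grey points not called, and the dashed line is the median of all genes. In the left panel RRM2 lies at 1.2 and FEN1 at -1.01; in the middle and right panels most points lie below 0, with PCNA at 0.84 and 0.69.

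**Figure D2:**
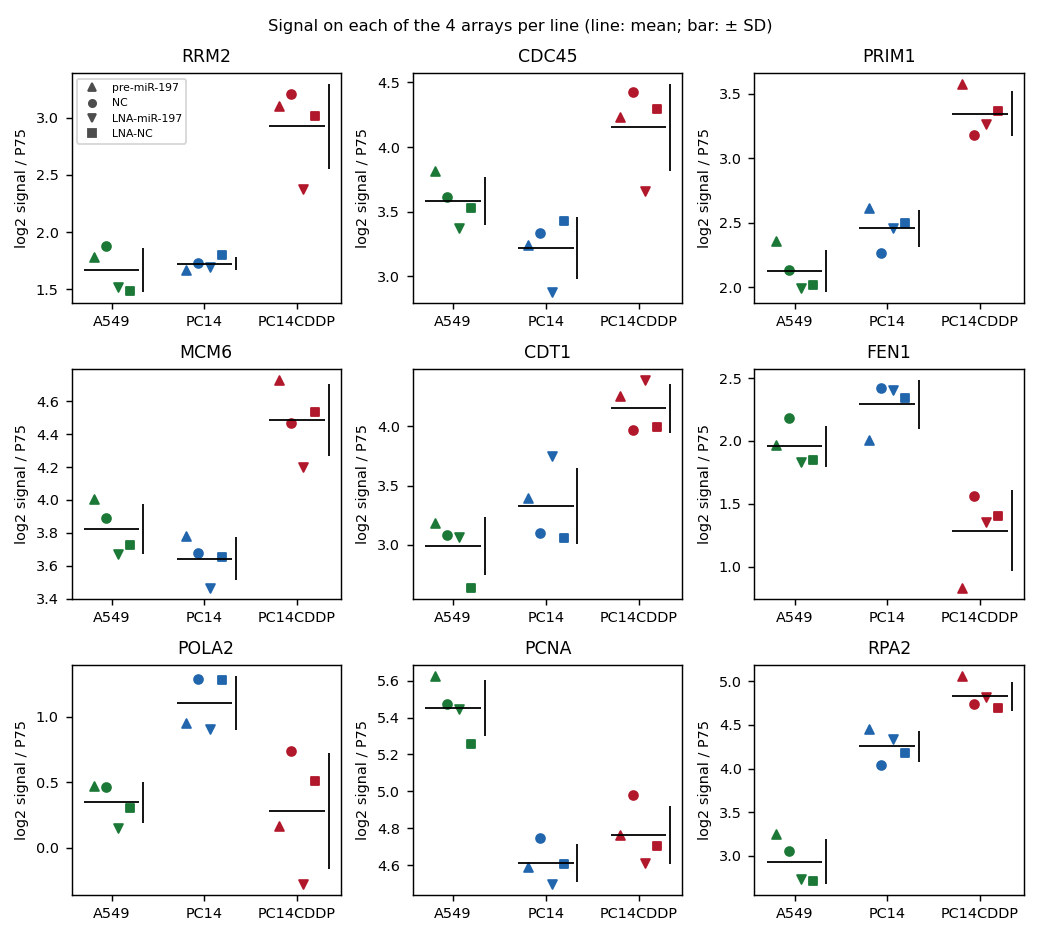
Level of 9 members on each array (y axis, log2 of signal over the 75th percentile; the axis of each panel has its own range) in the 3 lines; symbols mark the transfection, horizontal lines the mean and vertical bars ± SD (n = 4 arrays a line). The PC14CDDP points lie above the PC14 points for RRM2, CDC45, PRIM1, MCM6, CDT1 and RPA2 and below them for FEN1 and POLA2, and PCNA is highest in A549.

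Genes around the pathway were counted in the same way. Of 40 other replication genes (cyclins E and A, kinases, further polymerase subunits and checkpoint genes, on a list separate from the members), 24 were called higher in PC14CDDP and 4 lower, with a median of 0.42. CDC25A, a phosphatase that activates cyclin-dependent kinases at S-phase entry, had the largest difference (1.46 ± 0.151), followed by RBL1, a pocket protein that restrains E2F factors (1.02 ± 0.133), and MCM9 (1.01 ± 0.197; limma adjusted p between 0.000113 and 0.00322 for the 3). Of 20 mitotic genes, 10 were called higher and 2 lower, with a median of 0.22. Over all genes 24.7% were called higher and 23.6% lower. Among the inhibitors of cyclin-dependent kinases, CDKN1A (p21) was 2.33 ± 0.298 higher in PC14CDDP (limma adjusted p = 0.000345). Its 1 probe was well above background on 12 arrays but dim, with mean levels of -4.85 in PC14 and -2.52 in PC14CDDP. The difference ran from 1.17 to 3.03 over the transfections. CDKN2A, CDKN2C and CDKN2D were lower by 0.45 (log2 -0.45), 0.45 (-0.45) and 0.51 (-0.51), CDKN2A on 1 of its 2 probes. CDKN1B and CDKN1C differed by 0.04 and -0.62 and were not called, and CDKN2B was not above background on any array. CDKN1A was thus higher in the line in which most of the called members were higher, and its part in their levels was not tested.

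**Figure D3:**
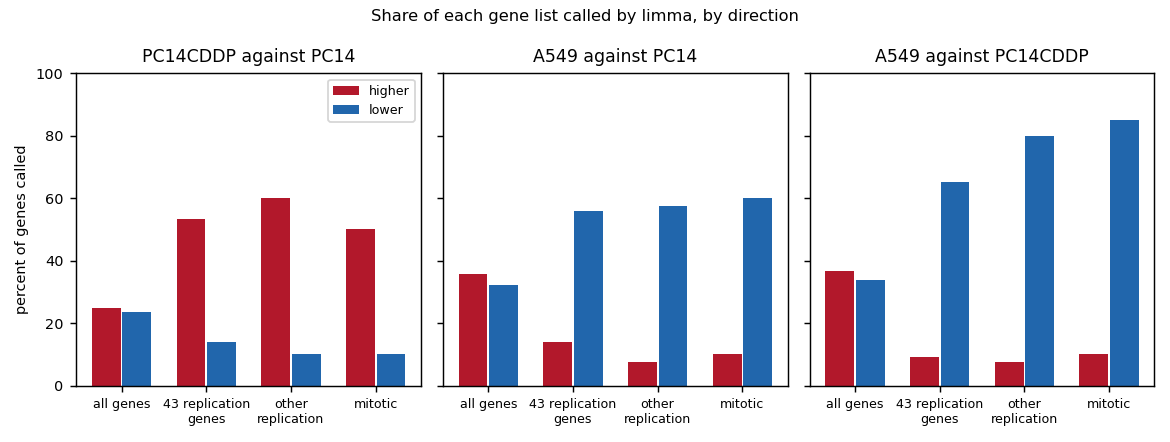
Percent of genes called by limma (y axis) as higher (red) or lower (blue) in each line comparison, for all 24857 genes, the 43 members, 40 other replication genes and 20 mitotic genes. In PC14CDDP against PC14, 53.5% of the members were called higher against 24.7% of all genes; in the comparisons of A549 with PC14 and with PC14CDDP, 55.8% and 65.1% of the members were called lower.

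In A549 most of the members were called lower than in either PC14 line. Against PC14, 24 of the 43 members (55.8%) were called lower and 6 higher, where 32.3% of all genes were called lower, 35.9% higher and 68.2% in either direction, and the median was -0.33 (0.08 over all genes). Against PC14CDDP, 28 (65.1%) were called lower and 4 (9.30%) higher, beside 33.7% and 36.8% of all genes (70.5% in either direction), with a median of -0.59 (0.06 over all genes). The arrays did not overlap for 19 members that were lower in A549 than in PC14 and for 3 that were higher, against 27.8% and 30.7% of all genes, and for 22 and 3 members against PC14CDDP, beside 26.6% and 29.3%. The comparisons share arrays and are set side by side, and line and slide cannot be told apart in either.

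The largest differences against PC14 were those of RPA2, RFC4, PRIM2 and RFC1, but genes of the same roles did not move together. RPA3 and RFC5 were higher in A549, and PRIM1 was lower by 0.33 on the log2 scale (-0.33). RPA1 differed by -0.13 on the probe used, without a call. Its dimmer probe gave 0.64 (limma adjusted p = 0.0043 over all probes). RPA2 read 3.24, 3.06, 2.73 and 2.71 in A549 and 4.46, 4.04, 4.33 and 4.18 in PC14 (log2 -1.32 ± 0.107, limma adjusted p = 1.17e-05), and 5.07, 4.74, 4.83 and 4.69 in PC14CDDP. The 3 lines were fully separated, and the other probe of RPA2 gave -1.53 for A549 against PC14. RFC4 read 3.64, 3.45, 3.24 and 3.23 in A549 against 4.64, 4.55, 4.63 and 4.67 in PC14 (log2 -1.23 ± 0.0962, limma adjusted p = 9.42e-06). RFC1, the large subunit, read 1.01, 1.31, 1.34 and 1.15 against 1.92, 2.35, 2.52 and 2.37 (log2 -1.09 ± 0.121, limma adjusted p = 7.56e-05). Neither RFC1 nor RFC4 had an A549 array that reached the lowest PC14 array. PRIM2 read 1.46, 1.38, 0.83 and 1.13 in A549 and 2.43, 2.32, 2.24 and 2.36 in PC14 (log2 -1.14 ± 0.0982, limma adjusted p = 1.69e-05), and its 3 probes gave values between -1.14 and -0.88. Part of PRIM2 has near-identical copies in the genome, so the identity of its signal is uncertain.

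The licensing genes were low in A549 as well, with 8 of 11 called lower than in PC14 and 11 of 11 lower than in PC14CDDP. Of all genes, 32.3% and 33.7% were called lower in these comparisons. GMNN read 3.72, 3.72, 3.42 and 3.33 in A549, below every PC14 array (log2 -1.03 ± 0.116, limma adjusted p = 8.03e-05) and every PC14CDDP array (-1.6). MCM5 read 2.96, 2.85, 2.86 and 3.54 in A549 (log2 -1.06 ± 0.13 against PC14, limma adjusted p = 0.000133), with the LNA-NC array well above the other 3. MCM2 read 3.05, 2.89, 2.66 and 2.68 in A549 and lay below all PC14 arrays (log2 -0.89 ± 0.0875, limma adjusted p = 3.78e-05). CDT1 read 3.18, 3.09, 3.07 and 2.63 in A549 and overlapped with PC14 (log2 -0.33 ± 0.114, limma adjusted p = 0.0301). That call was lost in 7 of 13 alternative settings, among them quantile normalization (limma adjusted p = 0.153) and the fits without the pre-miR-197, LNA-miR-197 or LNA-NC arrays, while CDT1 stayed lower in A549 than in PC14CDDP in 13 of 13 (log2 -1.16).

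Against this trend the sliding clamp was highest in A549. PCNA read 5.63, 5.48, 5.44 and 5.26 in A549, and each of these arrays was above all PC14 and PC14CDDP arrays (log2 0.84 ± 0.0922 against PC14, limma adjusted p = 6.91e-05, and 0.69 against PC14CDDP, limma adjusted p = 0.000206). All 3 of its probes gave the same direction, between 0.75 and 0.84 against PC14. RPA3 was higher than in PC14 by 0.54 and TK1 by 0.42, both with no overlap, and CDC45, RFC5 and MCM10 by 0.37, 0.35 and 0.28, the MCM10 call being kept in 6 of 13 settings (limma adjusted p up to 0.158). RRM2 read 1.78, 1.88, 1.52 and 1.48 in A549 and did not separate from PC14 (log2 -0.06, 95% interval -0.38 to 0.27), although both were far below PC14CDDP. E2F1 read 1.55, 1.43, 1.05 and 1.30 in A549, below every PC14 array (log2 -0.66 ± 0.123, limma adjusted p = 0.00151). The order of the line means was A549, PC14 and then PC14CDDP for 21 of the 43 members, and for 12 of these both neighbouring pairs differed by the test: MCM2, MCM4, CDT1, GMNN, ORC1, RFC1, RFC2, RFC3, PRIM1, PRIM2, RPA2 and CHAF1A. The same counts were not made over all genes. Of all genes, 68.2% were called for A549 against PC14 and 48.3% for PC14CDDP against PC14, so no excess of this order is read from the members. Of the calls of these 12 for PC14CDDP against PC14, that of MCM4 was kept in 6 of 13 settings and those of MCM2 and CHAF1A in 9 of 13. FEN1 ran PC14CDDP, A549, PC14, with both steps called, although its call for A549 against PC14 was kept in 5 of 13 settings (limma adjusted p up to 0.168), and POLA1 was called between no lines.

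Around the pathway, 23 of 40 other replication genes were called lower in A549 than in PC14 and 3 higher, with a median of -0.39; the largest were CDC7, the kinase that activates the loaded helicase (-2.33 ± 0.0727), cyclin E2 (CCNE2, -1.86 ± 0.0975) and POLD4, a small polymerase delta subunit, in the other direction (1.72 ± 0.084). Against PC14CDDP the counts were 32 lower and 3 higher, and CCNE2 (-2.40), CDC25A (-2.15) and CCNA2 (-2.08) led. Of the mitotic genes, 12 of 20 were called lower than in PC14 and 17 of 20 lower than in PC14CDDP. Of all genes, 32.3% were called lower than in PC14 and 33.7% lower than in PC14CDDP. CDKN1A was higher in A549 than in PC14 by 2.99 ± 0.298 (limma adjusted p = 3.94e-05). The CDKN2A probe used read higher by 2.02 ± 0.121 (limma adjusted p = 2.07e-06). Only 1 of the 2 CDKN2A probes carried signal. The other was well above background on 0 arrays (mean level -6.40 in A549), so the identity of the CDKN2A signal is uncertain. CDKN1C was lower by 2.03 on the log2 scale (-2.03), and CDKN2D, CDKN2C and CDKN1B differed by -1.10, -0.68 and -0.54. Against PC14CDDP, A549 had log2 differences of 2.48 for the same CDKN2A probe and, not called, 0.67 for CDKN1A.

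The transfections changed the group far less than the choice of line. After pre-miR-197, 0 of the 43 members were called against NC in either direction, where 0.0845% of all genes were called higher and 0.133% lower (limma). An unadjusted p under 0.05 (limma) was found for 8 of the 43 members, beside 4095 of all 24857 genes. The median difference was 0.06 (0.03 over all genes), and 32 of the 43 members differed by less than 0.25 on the log2 scale. The ratio was above 0 in all 3 lines for 20 members and below 0 in all 3 for 7, beside 25.8% and 18.6% of all genes. The smallest p values were those of RPA1, PRIM1, FEN1 and RFC1 (limma adjusted p between 0.157 and 0.20).

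Those lower in every line were RFC1, FEN1, LIG1, RPA1, RRM2, TYMS and TK1, and 0 of them were called. For RRM2 the ratios were small, at -0.09, -0.06 and -0.10. RPA1 gave log2 ratios of -0.20, -0.45 and -0.73 in A549, PC14 and PC14CDDP (mean -0.46, 95% interval -0.76 to -0.16). FEN1 gave -0.22, -0.42 and -0.74 (mean -0.46, 95% interval -0.79 to -0.13). RFC1 gave -0.29, -0.43 and -0.56. For each of the 3 the ratio was largest in PC14CDDP and smallest in A549, but none passed the adjusted test. The second probe of RPA1 gave a mean of -0.90 (limma adjusted p = 0.0901 over all probes). In the other direction PRIM1 gave 0.22, 0.34 and 0.40 (mean 0.32, limma adjusted p = 0.174) and MCM2 0.16, 0.31 and 0.33 (mean 0.27, limma adjusted p = 0.246).

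After LNA-miR-197, 1 of the 43 members (2.33%) was called lower against LNA-NC and 0 higher, where 3.90% of all genes were called lower, 3.75% higher and 7.66% in either direction. The number called ranged from 0 to 6 over the alternative settings, with 6 under a trend and robust prior, 5 with normexp or with NC as control and 4 with a filter on all 12 arrays, so no order against the background is read from it. The median was -0.08 (-0.02 over all genes), and 12 of the 43 members had an unadjusted p under 0.05 (limma), beside 6762 of all 24857 genes. The member called was POLA1, the catalytic subunit of the primer-making polymerase, on a probe at chrX:25014903-25014962 (hg19, plus strand). It read 1.6 after LNA-miR-197 and 2.11 after LNA-NC in A549, 1.97 and 2.42 in PC14, and 1.42 and 2.29 in PC14CDDP. The NC arrays read 2.29, 2.42 and 2.37 and the pre-miR-197 arrays 2.38, 2.45 and 2.57 in the same order of lines. The 3 LNA-miR-197 arrays were the lowest in their lines and lay below the other 9 arrays, and the mean ratio was -0.61 ± 0.127 (SE; 95% interval -0.90 to -0.32; limma adjusted p = 0.0335), a 1.53-fold decrease. The value was -0.70 against NC (limma adjusted p = 0.0155), and 7 of 15 alternative settings kept the call. Without any 1 of the lines it was lost (log2 between -0.69 and -0.48, limma adjusted p between 0.117 and 0.237) and without a filter on dim probes (limma adjusted p = 0.0684).

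Several other members of the elongation machinery had ratios below 0 in all 3 lines after LNA-miR-197 without a call. LIG1 gave -0.38, -0.42 and -1.24 in A549, PC14 and PC14CDDP (mean -0.68 ± 0.19, limma adjusted p = 0.0669). CDC45 gave -0.15, -0.55 and -0.63 (mean -0.45, limma adjusted p = 0.0699), and POLA2 -0.16, -0.38 and -0.79 (mean -0.44, limma adjusted p = 0.122). The PC14CDDP ratio was the lowest of the 3 for each of them. In all, 17 of the 43 members were below 0 in all 3 lines (39.5%) and 8 above 0, beside 24.8% and 23.0% of all genes. The 17 included MCM5, MCM6, GINS1, GINS2, GINS4, PRIM1, PRIM2, POLE, POLD1, RRM1 and E2F1, and the E2F1 ratios were -0.25, -0.22 and -0.54 (mean -0.34, limma adjusted p = 0.172).

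CDT1 and ORC6 went the other way. CDT1 read 3.07 after LNA-miR-197 and 2.63 after LNA-NC in A549, 3.75 and 3.06 in PC14, and 4.39 and 3.99 in PC14CDDP, so that the ratio was positive in each line (mean 0.51 ± 0.132, 95% interval 0.20 to 0.81, limma adjusted p = 0.0562). In A549 the NC array read 3.09, close to the LNA-miR-197 array. ORC6 gave 0.23, 0.64 and 0.69 (mean 0.52, limma adjusted p = 0.117). GMNN, PCNA, MCM2 and RRM2 had mean ratios of 0.11, -0.01, 0.08 and -0.24 (limma adjusted p between 0.399 and 0.98). The RRM2 ratio was 0.03 in A549 and -0.11 in PC14 and came to -0.63 in PC14CDDP. Probes of a gene differed in sign for 3 members. PRIM2, which is among the 17 on the probe that stood for it, had means of -0.27 and 0.25 on its other probes, with ratios of 0.20, 0.36 and 0.21 on the latter. CHAF1A, also among the 17, ranged from -0.09 to 0.02 over its probes, and PCNA from -0.07 to 0.02. For RPA1 the brighter probe, which stood for the gene, gave -0.02, and the dimmer gave -1.03 with ratios of -1.08, -1.11 and -0.90 (limma adjusted p = 0.0206 over all probes). With the mean of the probes of each gene in place of the brightest, POLA1 was still called and the number of members called was 1.

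**Figure D4:**
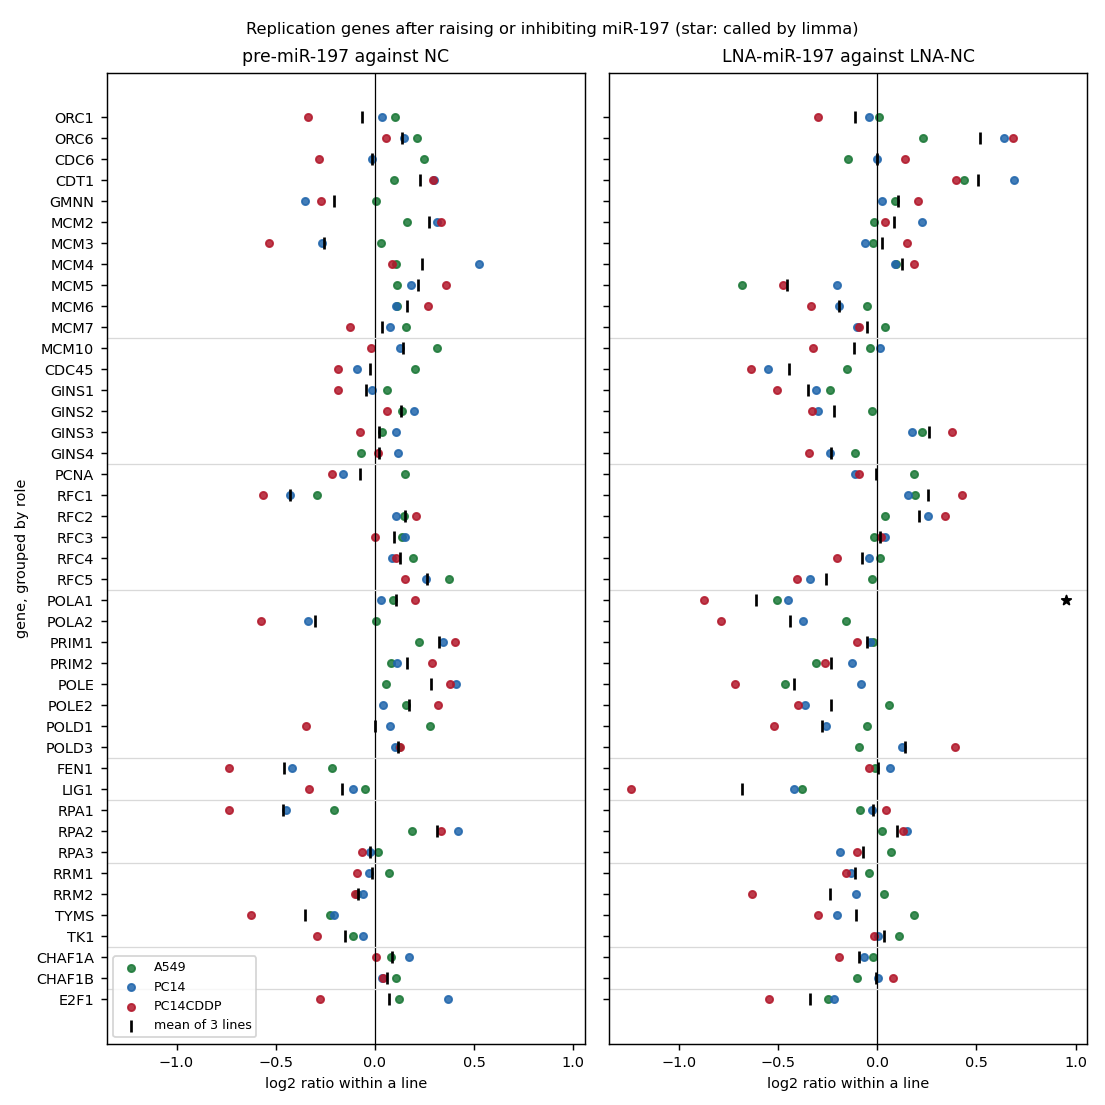
Log2 ratio of each member within A549, PC14 and PC14CDDP (points; 1 array against its control) for pre-miR-197 over NC (left) and LNA-miR-197 over LNA-NC (right); the black tick is the mean of the 3 lines and the star marks the member called by limma, POLA1. Most points lie within 0.5 of 0, and LIG1 in PC14CDDP after LNA-miR-197 lies at -1.24.

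The contrasts with pre-miR-197 and with LNA-miR-197 share no arrays within a line, and their difference was fitted as a term. It called 0 of the 43 members, against 0.0443% of all genes higher and 0.0644% lower (limma), with a median of 0.14 (0.04 over all genes). For this term 11 of the 43 members had an unadjusted p under 0.05 (limma), beside 4531 of all 24857 genes. POLA1 had 0.72 for this difference, the highest of the members, and RFC1 had -0.68, the lowest.

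The 2 controls were compared in the same fit. Between LNA-NC and NC, which share arrays with the contrasts above, 0 members were called by limma. Over all genes 0.475% were called higher, 0.177% lower and 0.652% in either direction. The unadjusted p (limma) was under 0.05 for 0 members and for 3393 of all 24857 genes. Of the 43 members, 39 had a mean below 0 (median -0.09, and -0.04 over all genes). In A549, 41 of the 43 members were lower on the LNA-NC array than on the NC array, with a median of -0.21, against 56.9% of all genes. In the same line 26 of 43 were below 0 after LNA-miR-197 (median -0.02), beside 49.4% of all genes. After pre-miR-197, 8 of 43 were below 0 (median 0.11), beside 44.0% of all genes. In A549 the median thus shifted more between the control arrays than after either agent, and the other lines differed in this. In PC14 the median between the control arrays was 0.02, against 0.08 with pre-miR-197 and -0.07 with LNA-miR-197. In PC14CDDP it was -0.10, against -0.02 and -0.16. With NC in place of LNA-NC as the control of LNA-miR-197, 5 members were called lower (CDC45, GINS1, POLA1, POLA2 and LIG1; 11.6%, where 7.81% of all genes were called lower) and 0 higher, with 14.8% of all genes called in either direction. The 40 other replication genes gave 0 calls with pre-miR-197 and 2 with LNA-miR-197, where 0.217% and 7.66% of all genes were called in either direction. The 2 were DBF4, the activator of CDC7, at 0.64 ± 0.125 (limma adjusted p = 0.0284) and POLD4 at -0.54 ± 0.097 (limma adjusted p = 0.024). The mitotic genes gave 0 and 1, and the inhibitors 0 and 0; CDKN1A had mean ratios of 0.19 and 0.64, CDKN1C of -0.94 and 0.08, and the other 4 inhibitors between -0.37 and 0.35 (limma adjusted p between 0.17 and 0.899 over the 6).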

How the data were processed

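Total RNA of 12 transfections was hybridized by the authors to 1-colour Agilent 8x60K arrays, and intensity values were extracted with Agilent Feature Extraction 10.7.3.1, per the submitters' processing notes. The deposited intensity is background-subtracted and detrended within an array and not scaled between arrays; the deposited value table equals it on all 62976 spots of each array. Here control and outlier spots were left out, spots of a probe were averaged, and log2 signal minus the log2 75th percentile of the array was taken. Probes with a missing value (106) were left out. Probes well above background on at least 3 arrays entered (33714), and the brightest probe stood for its gene (24857 genes). Probe coordinates are on hg19. Gene names are those of the array design, and the accessions of 28174 of 50599 probes matched a RefSeq gene. The members and lists were chosen with earlier results of these data known. limma 3.58.1 (R 4.3.3) was fitted to the 12 arrays with transfection and cell line as terms, with eBayes and Benjamini-Hochberg adjustment at 0.05, and was tested on simulated data. The cell line pairs treated and control arrays: deviations from the transfection means correlated with r between 0.848 and 0.949 across genes within lines. Nothing states that the 4 cultures of a line were independent, so p-values measure the spread between these arrays, and the number of arrays limits precision. Per-array values are given for 6 members fixed by role (MCM2, CDT1, GMNN, PCNA, RRM2, E2F1), members called after a transfection, and the 6 largest called differences for PC14CDDP against PC14 and for A549 against PC14; LIG1 and the other members with values in single sentences were chosen after their values were seen. Of the markers used to check the lines, CDH5, VWF, PTPRC, CD68, COL1A1 and KRT19 were well above background on all 12 arrays, and CD3E and PECAM1 on some; 1 marker is not reported here. The methods name Student's t-test in general and no normalization for these arrays. Tables and figures were made in Python 3.11.15 (matplotlib 3.10.9, pandas 2.3.3, numpy 2.4.6).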

Additional observations from a re-analysis of the deposited data

Results flagged for a closer look

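Of 129 sets of 4 arrays (43 members in 3 lines), 9 held an array whose gap to its neighbour exceeded Dixon's 95% critical value, and chance flags about 1 set in 20. The ratio of this gap to the range is given for each. LNA-miR-197 arrays were the low one for POLA1 in PC14 (1.97 against 2.42 to 2.45, ratio 0.930), LIG1 in A549 (3.08 against 3.46 to 3.51, 0.883), RPA3 in PC14 (4.67 against 4.83 to 4.86, 0.866) and MCM10 in PC14CDDP (-0.50 against -0.20 to -0.17, 0.919). The LNA-NC array in A549 was high for MCM5 (3.54 against 2.85 to 2.96, 0.843) and low for GINS3 (2.78 against 2.98 to 3.02, 0.846). The pre-miR-197 array in PC14 was low for RPA1 (3.98 against 4.40 to 4.43, 0.912). The NC array was high for TK1 in PC14 (7.0 against 6.93 to 6.94, 0.899) and in PC14CDDP (7.62 against 7.33 to 7.37, 0.875).

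After pre-miR-197, 2 members moved by at least 1.2-fold in opposite directions in different lines. POLD1 had log2 ratios of 0.28 in A549 and -0.35 in PC14CDDP (apart by 0.624), and E2F1 had 0.37 in PC14 and -0.28 in PC14CDDP (apart by 0.643). With 1 array of each kind in a line these differences were not tested.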

How the results depend on the processing

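The line comparisons kept their direction in every setting run. For PC14CDDP against PC14 the members called ranged from 21 to 33 (29 as reported) over the alternatives and from 22 to 29 with 1 transfection left out; for A549 against PC14 from 24 to 34 (30) and, left out, 24 to 26; for A549 against PC14CDDP from 28 to 34 (32) and, left out, 30 to 34. Of the members called, 16 of 29, 21 of 30 and 27 of 32 were called in all 13 alternatives. Quantile normalization lowered the median difference to 0.24 for PC14CDDP against PC14 and to -0.43 for A549 against PC14CDDP; the cause was not tested. The median ranged from 0.27 to 0.36, -0.37 to -0.29 and -0.64 to -0.54 with 1 transfection left out.

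Calls after LNA-miR-197 depended on the setting: 2 members with quantile normalization, 5 with normexp, 0 with no filter on dim probes, 4 with a filter on all 12 arrays, 6 with a trend and robust prior, 0 with only the arrays of the comparison, 0 with the slide as a block, 0 with the methods' t-test, and 5 with NC in place of LNA-NC (median -0.19). Paired fits use the line as the replicate block; with no replicate block the count was 0 for either agent. Leaving out 1 line gave 0 to 0 calls in each transfection comparison, with the median from -0.13 to -0.04 after LNA-miR-197, 0.02 to 0.10 after pre-miR-197, 0.15 to 0.17 for their difference and -0.15 to -0.02 for LNA-NC against NC. After pre-miR-197 and for LNA-NC against NC no setting called a member (0). The difference between the contrasts gave 1 call with a trend and robust prior, and its median was 0.11 with normexp.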
